A study of Homo sapiens with 6 samples.

Results

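AP-1 and its fellow immediate early genes were followed here as a set of 10: the FOS family (FOS, FOSB, FOSL1, FOSL2), the JUN family (JUN, JUNB, JUND), ATF3, IER2 and KLF4. The rule picks them by name, but the set was put together with earlier results of these data known, so its counts against all genes are descriptions. Each member was matched by its gene identifier, and all 10 were found among the 13021 genes that had a single row in the deposited matrix. FOSB was blank in HCT116 and SW480 and carried values in HT29 only, so 9 members had values in all 3 lines.

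The study depleted BZW2, a relative of a translation initiation factor, in 3 established human colorectal cancer cell lines, HCT116 (titled HCT116WT), HT29 and SW480. Each line was infected with a lentivirus that expressed either a BZW2 shRNA or a non-targeting shRNA, and stable cells were selected with puromycin at 1 µg/ml. RNA sequencing of each line gave 1 library with the BZW2 shRNA (knockdown) and 1 with the non-targeting shRNA (control), 6 libraries in all, with the stated aim of finding genes and pathways that BZW2 knockdown alters. All 3 knockdown titles carry the same hairpin name, SH2, so every difference below rests on 1 hairpin, and no source used here speaks of repeat cultures of a line. Cells of both groups carried a lentiviral hairpin and had been through the same drug selection.

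AP-1 is a family of dimeric transcription factors built from basic leucine zipper (bZIP) proteins. JUN proteins can pair with one another, whereas FOS proteins need a JUN or ATF partner to bind DNA, and ATF3 joins the same network. Most of these genes belong to the immediate early class, which growth factor, stress and MAP kinase signals switch on within minutes without new protein synthesis, and whose transcripts decay quickly. IER2 is a serum-induced gene for a nuclear protein outside the bZIP family, and KLF4 encodes a zinc finger factor known from differentiated cells of the colon epithelium.

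AP-1 and its relatives bind short palindromes, and several of these genes carry such letters in their own promoters, which is why the promoter stretches are shown. The 250 bases before each RefSeq transcript start (GRCh38.p14) were searched on both strands for TGACTCA, the AP-1 element, for TGACGTCA, the cyclic AMP response element (CRE), for TGACATCA, the variant first described in the JUN promoter, and for TGACGT, a shorter form of the CRE that also lies inside every full one. RefSeq gave a promoter for 9 members (all but FOSL1), with 2 entries for ATF3. The lines below are 30-base windows, 5′ to 3′ on the strand of the gene, with the match in capitals, and for JUND the whole 250 bases, since it held both a full CRE and a separate short form.

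FOS, chr14:75278753-75278782, plus strand: ggttgagcccgTGACGTttacactcattca
FOSB, chr19:45467925-45467954, plus strand: caaggggcgggTGACGTaagcaggggggcg
FOSL2, chr2:28392781-28392810, plus strand: gagtctggggtTGACGTgagtgaatccaca
JUN, chr1:58784096-58784125, minus strand: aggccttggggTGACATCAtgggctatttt
ATF3, chr1:212565273-212565302, plus strand: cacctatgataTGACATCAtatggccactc
JUND, chr19:18281623-18281872, minus strand: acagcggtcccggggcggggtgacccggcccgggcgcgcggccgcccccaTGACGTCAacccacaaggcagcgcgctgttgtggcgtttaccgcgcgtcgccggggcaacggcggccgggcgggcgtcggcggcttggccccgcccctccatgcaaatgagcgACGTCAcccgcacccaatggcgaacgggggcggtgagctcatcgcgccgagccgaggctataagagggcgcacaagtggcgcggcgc

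The short form lay 64 to 59 bases upstream of the start in FOS, 60 to 55 in FOSB and 66 to 61 in FOSL2. In JUND the full CRE lay 200 to 193 bases upstream and a short form on the opposite strand (ACGTCA as printed) 87 to 82 upstream. The TGACATCA variant lay 67 to 60 bases upstream in JUN and 123 to 116 in ATF3. These distances are from RefSeq starts, whereas the gene positions given below are from GENCODE. The GENCODE spans of JUN and FOSL2 begin further upstream, so the matches of both genes lie inside them. Over all 35116 promoters of this length, 7.10% held the short form, 1.65% the full CRE, 2.37% the TGACATCA variant and 4.20% TGACTCA. No promoter of a member held TGACTCA within these windows. These matches describe letters only.

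Depth over listed genes was lowest in the HCT116 knockdown (2187373 reads) and highest in the HT29 control library (9317444), and the HCT116 control held 5640626 reads. BZW2, the targeted gene, stood at 8.85% of its control level in HT29 (95% counting interval 7.36 to 10.6%), 13.8% in SW480 (10.7 to 17.6%) and 18.2% in HCT116 (12.1 to 26.5%). The HCT116 pair stood apart from the others: the SD of log2 ratios over genes was 1.63, against 0.65 in HT29 and 0.72 in SW480, and 129 listed genes had 0 reads in its knockdown library. Log2 ratios in HCT116 ran with the GC content of the transcript (Spearman 0.67 across genes). They did so less in HT29 (0.33) and hardly at all in SW480 (−0.06). HCT116 ratios of the members are therefore also given below with a trend on GC content and transcript length taken out. With it taken out, the log2 ratio of BZW2 (36.9% GC) was −1.02 in HCT116, against −2.46 as deposited. It was −3.08 in HT29 and −3.09 in SW480, against −3.50 and −2.86. Of 10 epithelial markers 6 were in the table and had reads in every library, with a summed level of 4227 to 13052 CPM (reads scaled to the library's listed total), the highest in the HCT116 knockdown library. Of the fibroblast markers COL1A1 alone was seen, at 5.49 CPM or less, and no leukocyte or endothelial marker was.

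The transcript of FOS, the prototype of its family, was lower in the knockdown libraries of HT29 and SW480 and within counting error of control in HCT116. FOS (ENSG00000170345, chromosome 14, positions 75278774 to 75282230, GRCh38) had normalised read counts of 508 in the HT29 control and 231 in the knockdown. In SW480 it went from 254 to 38.0, and in HCT116 the values were 55.9 and 54.7. The knockdown library thus held 45.5% of control in HT29 (38.8 to 53.3%) and 14.9% in SW480 (10.5 to 20.8%). In HCT116 it held 97.9%, on 102 and 30 reads, with an interval (62.9 to 148%) that included no change. These counting intervals are exact Clopper-Pearson intervals on the reads of 2 libraries and leave out spread between cultures. In bulk RNA of a culture, fewer cells with a transcript and less of it per cell cannot be told apart.

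FOSL1 (FRA-1), a FOS family member tied to invasive growth in carcinoma lines, went its own way. FOSL1 (ENSG00000175592, chromosome 11, positions 65892049 to 65900573) had 31.8 normalised reads in the HCT116 control and 319 in the knockdown, a ratio of 10.04 (7.42 to 13.8). HT29 gave 62.2 and 39.1, or 62.8% of control (40.9 to 95.3%), and SW480 gave 111 and 115, or 104% (79.3 to 136%). FOSL1 was therefore far higher in 1 line, somewhat lower in another and within counting error of control in the third. The HCT116 difference was the 98.8th percentile of that line's log2 ratios, and it stood at 2.02 on the log2 scale after the GC and length trend was taken out, against 3.33 before.

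FOSL2 (FRA-2), the other FOS-related antigen, split by line. FOSL2 (ENSG00000075426, chromosome 2, positions 28392448 to 28417312) went from 110.7 to 186 normalised reads in HCT116, from 498 to 328 in HT29 and from 303 to 133 in SW480. The knockdown was above control in HCT116 (168%, 131 to 214%) and below it in HT29 (65.9%, 57.2 to 76.0%) and SW480 (43.9%, 35.7 to 53.8%). FOSB, the FOS relative best known from stimulated neurons, was at the floor of the table. FOSB (ENSG00000125740, chromosome 19, positions 45467995 to 45475179) had 17 reads in the HT29 control and 10 in the knockdown (normalised 16.5 and 10.3). Its ratio of 62.3% had an interval (25.5 to 144%) that included no change.

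**Figure D1:**
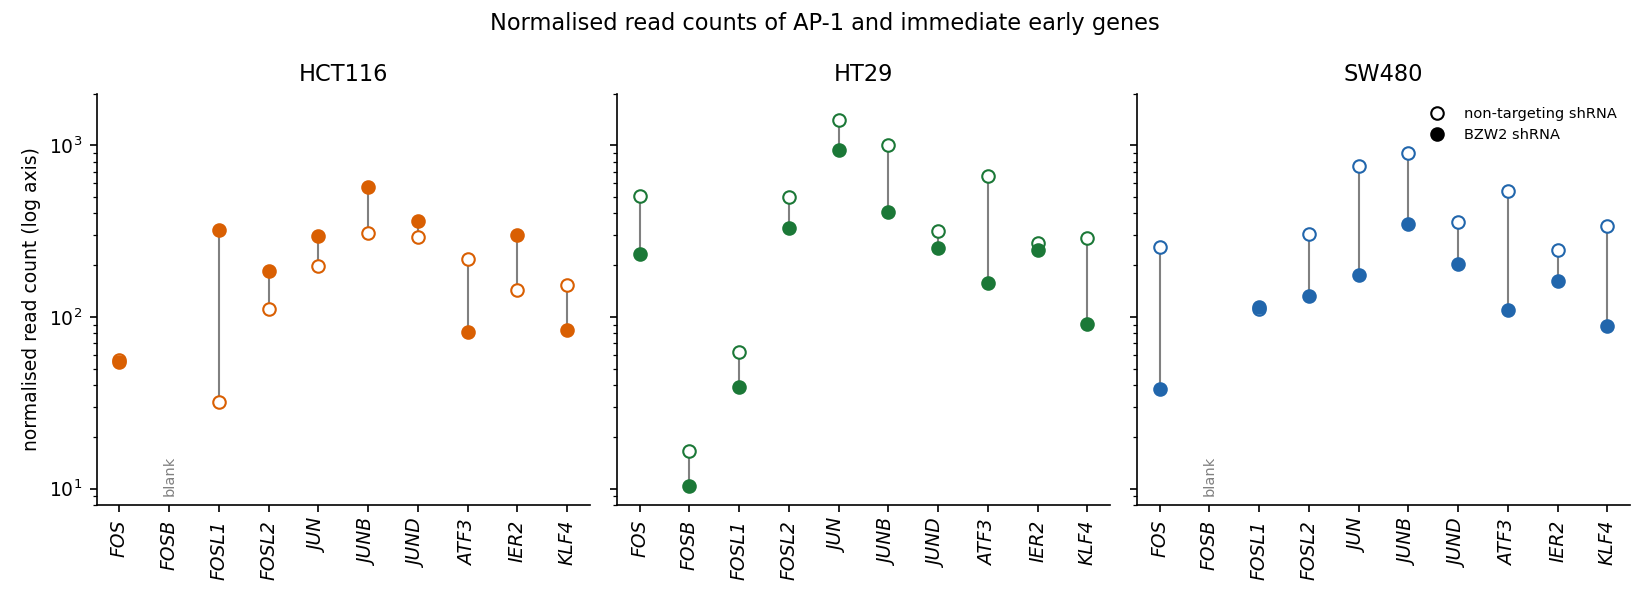
Normalised read counts (log axis) of the 10 genes in the control library (open circles) and the BZW2 knockdown library (filled circles) of each line, with 1 library per point. ATF3 and KLF4 sit lower with the BZW2 shRNA in all 3 panels, FOSL1 stands out above its control in HCT116, and FOSB has points in HT29 alone.

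As deposited, the JUN family was lower in both HT29 and SW480 and higher in HCT116, for each of its 3 genes. With the GC and length trend taken out, the HCT116 log2 ratios lay below 0, at −0.44 for JUN, −0.54 for JUNB and −1.17 for JUND. JUN (ENSG00000177606, chromosome 1, positions 58780788 to 58784327), the founding AP-1 subunit, had 1399.7 normalised reads in the HT29 control and 940.3 in the knockdown. In SW480 it had 761 and 175, and in HCT116 197 and 297. JUN stood at 67.2% of control in HT29 (61.8 to 73.04%), 23.1% in SW480 (19.6 to 27.1%) and 151% in HCT116 (124 to 182%). In SW480 only FOS and ATF3 stood at a lower percentage of control.

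JUNB (ENSG00000171223, chromosome 19, positions 12791496 to 12793315), often a brake on JUN-driven growth, showed nearly the same ratio in HT29 and SW480. Its normalised reads were 1008 and 407 in HT29, 904 and 348 in SW480, and 309.7 and 573 in HCT116. The ratios were 40.4% (35.9 to 45.4%), 38.5% (34.0 to 43.5%) and 185% (161 to 213%). The exons of JUNB overlap those of HOOK2 on the opposite strand, and whether counting used strand is not given in the sources used here; reads of the pair may be mixed.

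JUND (ENSG00000130522, chromosome 19, positions 18279760 to 18281622), the least inducible JUN gene, had the ratios nearest to 1 of the 3 in every line. Normalised reads were 317 and 252 in HT29, 358 and 204 in SW480, and 291 and 359 in HCT116. The knockdown held 79.5% of control in HT29 (67.1 to 94.2%), 57.0% in SW480 (47.9 to 67.8%) and 123% in HCT116 (104 to 146%). With plain scaling to library size the HCT116 value of JUND turned to −0.06 on the log2 scale, but that scaling also put the median of all genes in HCT116 at −0.38. With the GC and length trend taken out JUND stood at −1.17, so its HCT116 direction depends on these choices.

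ATF3 and KLF4 were lower with the BZW2 shRNA in each of the 3 lines. ATF3 (ENSG00000162772, chromosome 1, positions 212565334 to 212620777), a stress-induced bZIP gene, had 216 and 82.1 normalised reads in HCT116, 658 and 158 in HT29, and 539 and 110.3 in SW480. The knockdown held 38.0% (27.3 to 51.8%), 24.1% (20.1 to 28.7%) and 20.5% (16.7 to 25.03%) of control. KLF4 (ENSG00000136826, chromosome 9, positions 107484852 to 107490482) went from 152 to 83.9 in HCT116, from 287 to 90.5 in HT29 and from 337 to 88.6 in SW480. Its knockdown libraries held 55.1% (39.4 to 75.4%), 31.6% (24.6 to 40.2%) and 26.3% (20.7 to 33.1%). On these values, which appear to be scaled separately in each line, the 3 knockdown libraries lay below all 3 controls for both genes. No interval reached the control level. The HCT116 knockdown values rest on 45 reads for ATF3 and 46 for KLF4.

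IER2 as deposited stood closest to control in HT29 and pointed in opposite directions elsewhere. Its HCT116 log2 ratio turned to −0.27 with the GC and length trend taken out. IER2 (ENSG00000160888, chromosome 19, positions 13150415 to 13154908) had 144 and 299 normalised reads in HCT116, 270.2 and 244 in HT29, and 244 and 162 in SW480. That is 208% of control in HCT116 (170 to 253%), 90.2% in HT29 (75.6 to 108%, which included no change) and 66.2% in SW480 (54.1 to 81.0%). An antisense gene overlaps IER2 as well, with the same open point about strand.

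**Figure D2:**
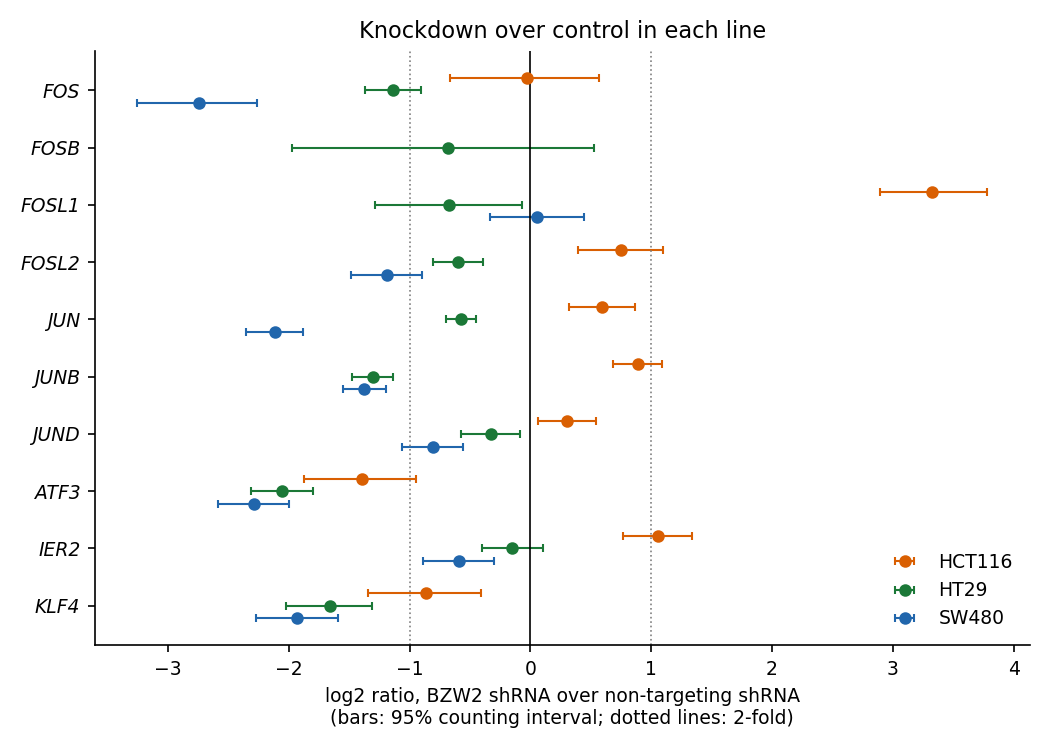
Log2 ratio of knockdown over control for each gene (rows) in HCT116 (orange), HT29 (green) and SW480 (blue), with bars for the exact 95% counting interval and dotted lines at 2-fold. Ratios are as deposited. The HT29 and SW480 points of 8 genes lie left of 0. In HCT116 the points of FOSL1, FOSL2, JUN, JUNB, JUND and IER2 lie right of it.

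Counted by a 2-fold ratio with at least 5 CPM in the higher library, the lines differed in how the set compared with all genes. In SW480, FOS, FOSL2, JUN, JUNB, ATF3 and KLF4 were at least 2-fold lower, 6 of the 9 members with enough reads, where 7.28% of all genes were. None was 2-fold higher there, where 5.69% of all genes were. In HT29, 4 of 9 (FOS, JUNB, ATF3, KLF4) were at least 2-fold lower against 6.07% of all genes, and 0 were higher against 4.15%. In HCT116 only ATF3 was 2-fold lower, where 28.9% of all genes were, and FOSL1 and IER2 were 2-fold higher, where 28.1% were. In HCT116 the counts were thus near or below the background of a wide spread, and no test could be run in any line with 1 library per treatment.

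FOS, JUNB, ATF3 and KLF4 were at least 2-fold lower in both HT29 and SW480, a pattern that 1.33% of the 9731 genes with enough reads in both lines showed. In sign alone, 8 of 9 members were lower in both of these lines, against 28.9% of all 10875 genes listed in the 3 lines. The exception was FOSL1. Of these 8, FOSL2, JUN, JUNB, JUND and IER2 were higher in HCT116 as deposited, 5 of 9 against 9.11% of all genes. Lower in all 3 lines were FOS, ATF3 and KLF4, 3 of 9 against 19.8%, and higher in all 3 lines was 0 of 9 against 23.7%. FOS counts among the former by a log2 ratio of only −0.03 in HCT116. All these signs are of deposited ratios. With the GC and length trend taken out, JUN (−0.44), JUNB (−0.54), JUND (−1.17) and IER2 (−0.27) lay below 0 in HCT116, and FOSL2 (0.30) lay above it.

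Across lines, limma on log2(value + 1) with cell line and treatment as terms asked which members differed whatever the line. By Benjamini-Hochberg adjusted p over all 10875 genes, 0 of 9 members passed 0.05, as did 0% of all genes, BZW2 itself included (−2.92 ± 0.40, limma adjusted p = 0.155). At an unadjusted p under 0.05, 3 members were lower (FOS, ATF3 and KLF4), where 7.04% of all genes were lower at that level, and 0 were higher, where 6.59% of all genes were. ATF3 had a log2 fold change of −1.90 ± 0.40 (moderated SE, limma adjusted p = 0.250), KLF4 −1.47 ± 0.42 (limma adjusted p = 0.279) and FOS −1.29 ± 0.54 (limma adjusted p = 0.359). The other 6 had limma adjusted p from 0.503 to 0.915, with JUN at −0.70 ± 0.51, JUNB at −0.60 ± 0.49, FOSL2 at −0.35 ± 0.46, JUND at −0.28 ± 0.40, IER2 at 0.10 ± 0.44 and FOSL1 at 0.90 ± 0.71. The median over the 9 was −0.60, against 0.02 over all genes. The moderated SE leans on spread pooled over genes and is not the spread of a gene's own 3 ratios. For FOSL1 those ratios were 3.33 (HCT116), −0.67 (HT29) and 0.05 (SW480) on the log2 scale.

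The call depended on HCT116 and on the tool. Without the HCT116 pair, 5 members fell past a limma adjusted p of 0.05 (FOS, JUN, JUNB, ATF3 and KLF4), where 1.39% of all genes fell. In that fit ATF3 was at −2.16 (limma adjusted p = 0.00367), KLF4 at −1.78 (0.00929), FOS at −1.92 (0.0146), JUNB at −1.34 (0.0146) and JUN at −1.34 (0.0479). That fit rests on HT29 and SW480 alone, so its p-values lean still more on spread pooled over genes. The log2 ratios in HT29 and SW480 were −1.13 and −2.74 for FOS and −0.57 and −2.12 for JUN. They lay closer together for ATF3 (−2.05 and −2.29), KLF4 (−1.66 and −1.93) and JUNB (−1.31 and −1.38). DESeq2 on the recovered reads of all 3 lines called ATF3 (−1.96, adjusted p = 0.00309) and KLF4 (−1.53, adjusted p = 0.0463), among 134 lower genes of the 10875 fitted. edgeR called 0 members, and 0 of all genes lower or higher. With the GC and length trend removed in the same paired fit, 0 members passed (limma adjusted p from 0.0649 to 0.714), where 2 of all genes passed lower and 0 higher. There JUN stood at −1.07, JUNB at −1.15, JUND at −0.76, IER2 at −0.37 and FOSL1 at 0.37. The direction of FOSL1 turned without HCT116 (−0.30), and those of FOSL2 (0.07) and JUN (0.01) turned without SW480.

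Most members are rich in GC, and the trend of ratios with GC content was steepest in HCT116. JUND, at 69.7% GC, lay at the 99.8th percentile of genes for GC content, JUNB (64.9%) at the 96.8th and IER2 (61.7%) at the 91.1st. A smooth trend of the log2 ratio on GC content and transcript length over all genes had an r2 of 0.112 in HT29, 0.033 in SW480 and 0.433 in HCT116. At the GC content and length of JUN, JUNB, JUND and IER2 the HCT116 trend alone stood between 1.03 and 1.47, above the ratio each of the 4 showed. With the trend taken out, JUN stood at −0.44 in HCT116, JUNB at −0.54, JUND at −1.17 and IER2 at −0.27, so all 4 changed sign there. FOS moved to −0.78 and KLF4 to −1.80, ATF3 stayed at −1.38, and FOSL1 (2.02) and FOSL2 (0.30) remained above 0.

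With the trend taken out, 7 of 9 members were lower in all 3 lines, against 18% of all genes. Then 3 members were at least 2-fold lower in HCT116 (JUND, ATF3 and KLF4, against 17.3% of all genes) and 1 was 2-fold higher (FOSL1, against 18.8%). HT29 had 4 lower members and 0 higher, against 4.37% and 4.49%, and SW480 6 and 0, against 6.7% and 5.45%. No sign changed in HT29 or SW480. JUN, JUNB, JUND and IER2 also share a longest transcript with a single exon, and protein-coding genes of that kind had a median log2 ratio of 0.42 in HCT116, against 0.00 for genes with more exons. The part that base composition or exon number plays in the HCT116 values was not tested beyond these figures.

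**Figure D3:**
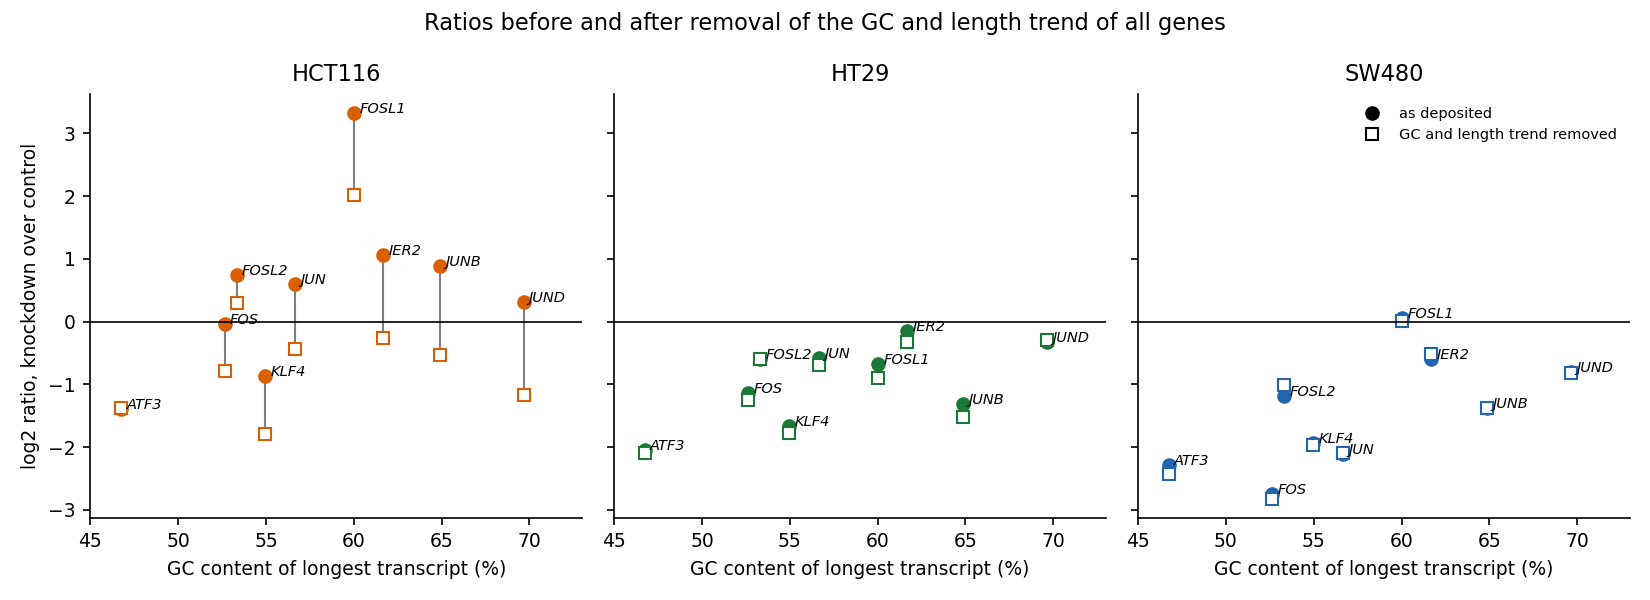
Log2 ratio of the 9 genes listed in all lines (vertical axis) against the GC content of the longest transcript (horizontal axis, percent), as deposited (filled circles) and after removal of the GC and length trend of all genes (open squares). In HCT116 the squares of JUN, JUNB, JUND and IER2 lie below 0 and their circles above it, while circles and squares nearly coincide in SW480.

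Levels within a family were compared per length, as CPM per kilobase of exon, with CPM taken over listed reads. In the controls the FOS family summed to 28.98 in HT29, 31.96 in SW480 and 16.04 in HCT116. FOS held the largest share in 4 of 6 libraries, the 3 controls and the HT29 knockdown, and FOSL1 in the other two. In the HCT116 control that lead was within counting error, since the intervals of FOS (4.55 to 6.78), FOSL1 (4.14 to 7.04) and FOSL2 (4.34 to 5.74) overlapped. The share of FOS went from 34.8 to 7.97% in HCT116, from 59.8 to 51.1% in HT29 and from 43.8 to 12.9% in SW480. The share of FOSL1 went from 34.0 to 79.8%, from 12.6 to 14.8% and from 32.7 to 66.8%. So FOSL1 led the family in the HCT116 knockdown, where its level on this scale was 42.4 against 5.45 in the control, and in the SW480 knockdown, where its level was 10.4 in the control and 11.02 in the knockdown while FOS (14.0 and 2.12) and FOSL2 (7.54 and 3.36) were lower.

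Summed over the FOS family, the knockdown level came to 331% of control in HCT116, against 52.3% for HT29 and 51.7% for SW480. The JUN family was the more abundant, with control sums of 124 in HCT116 and in HT29 and 161 in SW480, and its knockdown level was 120%, 54.8% and 39.5% of these. These sums and shares scale to library size and keep the GC and length trend. In HCT116 that trend was 1.31 on the log2 scale at FOSL1, 0.75 at FOS and 0.45 at FOSL2. It was 1.03 at JUN, 1.43 at JUNB and 1.47 at JUND, and the sums were not recomputed without it. JUNB held the largest share of the JUN family in 5 of 6 libraries, between 44.5 and 54.9%. In the HT29 knockdown JUN led with 42.5%, against 35.8% for JUNB. With the length of the longest transcript in place of all exons, the same number of libraries was led by FOS (4) and by JUNB (5).

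**Figure D4:**
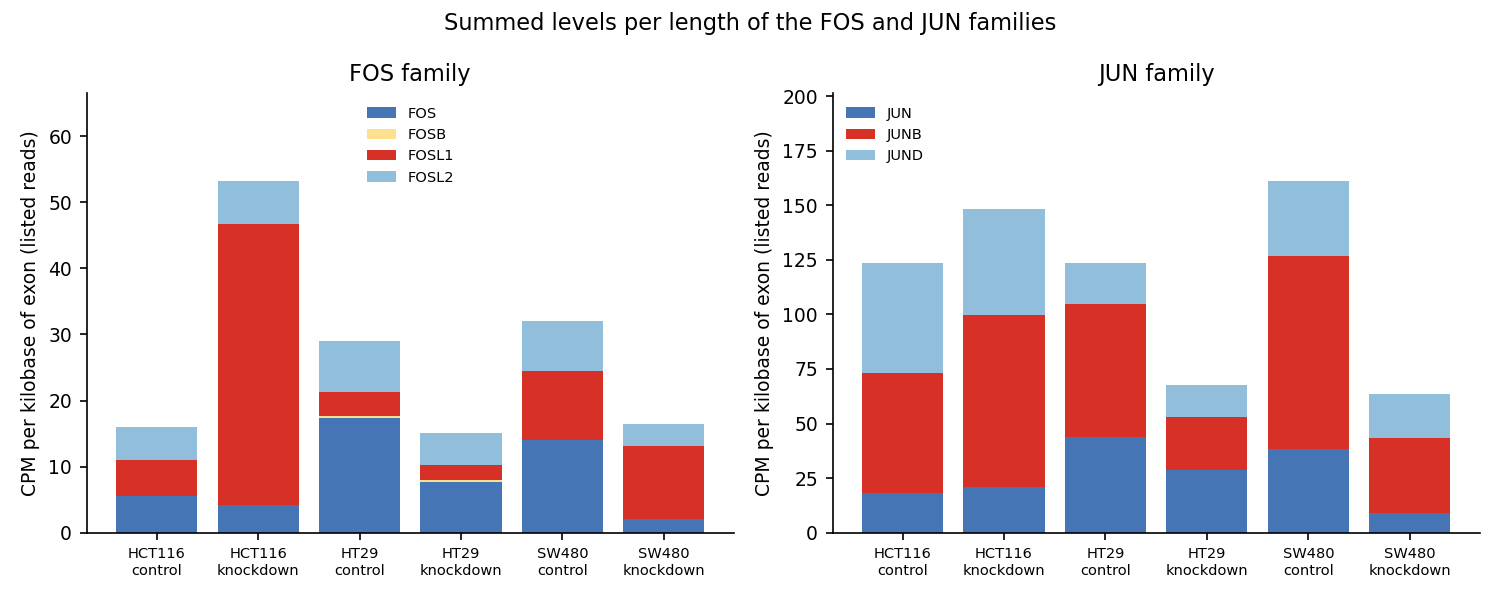
Summed level of the FOS family (left) and the JUN family (right) in each library, in CPM per kilobase of exon, with stacked bars for the members. FOSL1 (red, left) fills most of the bar in the HCT116 and SW480 knockdown libraries, and the JUN family bars of HT29 and SW480 are 54.8 and 39.5% as tall with the BZW2 shRNA.

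Among control libraries the order of the lines differed from gene to gene, on the same scale per length, with exact Poisson 95% intervals. FOS was highest in HT29 (17.3, 15.9 to 18.9), then SW480 (14.0, 12.2 to 15.9, touching the former) and HCT116 (5.58, 4.55 to 6.78). JUN had the same order (43.7, 38.3 and 18.0), and its upper pair was barely separate. JUNB was highest in SW480 (88.4), with HT29 (61.2) and HCT116 (55.0) overlapping. JUND ran the other way, from HCT116 (50.5) through SW480 (34.2) to HT29 (18.8), with no overlap. ATF3 was highest in SW480 (23.7), where HT29 (18.0) and HCT116 (17.3) did not separate, and KLF4 in SW480 (16.4) and HCT116 (13.5), which overlapped, above HT29 (8.65). FOSL1 was highest in SW480 (10.4), FOSL2 was alike in HT29 (7.68) and SW480 (7.54), and IER2 was alike in HCT116 (15.2) and SW480 (14.2).

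In its own library JUNB lay at the 94.7th percentile of listed genes per length in the HCT116 control, the 94.2nd in HT29 and the 96.8th in SW480. ATF3 went from the 79.1st percentile to the 51.7th in HCT116, from the 77.0th to the 39.1st in HT29 and from the 85.7th to the 43.0th in SW480. FOSL1 went from the 44.5th to the 91.3rd percentile in HCT116. These moves put ATF3 from the upper ranks of the transcriptome near its middle in every line.

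For each member the 3 genes with the nearest log2 ratios over the 3 lines were looked up among 8355 genes with enough reads, by Euclidean distance in log2 units. Nearest to JUNB was DUSP1, the phosphatase gene of the immediate early class (0.34), then TIMM23B and CSRNP1. JUN had ZFP36, an mRNA decay factor of the same class (0.41), the glucose transporter gene SLC2A1 and WDR27. FOS had PPP1R15A, a stress-induced phosphatase subunit (0.71), PABPC1L and ADM. ATF3 had ALDOC (0.44), BHLHE40 and FTX, and KLF4 had ERN1, the sensor IRE1 of the unfolded protein response (0.40), FTX and ALDOC. FOSL2 lay closest to the amino acid carrier SLC1A5 (0.15), then CBLC and SLC3A2. JUND lay near GSE1 (0.06), CSRNP2 and EGFR, IER2 near HDAC6 (0.05), ECE1 and PLP2, and FOSL1 near HSPA1B (0.53), SNHG12 and CLCN7. With 3 lines each distance rests on 3 points.

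The wider immediate early class was also divided by line. Of 35 other immediate early genes, 30 were listed in all lines, and 0 passed a limma adjusted p of 0.05, with 3 lower and 0 higher at an unadjusted p under 0.05 (all genes 7.04 and 6.59%). Lower in HT29 and SW480 and higher in HCT116 were 16 of the 30 (9.11% of all genes, as above), lower in all 3 lines 6, near the 19.8% of all genes, and higher in all 3 none, against 23.7%. These signs are of deposited ratios. With the GC and length trend removed, DUSP1 (−0.13), ZFP36 (−0.44), CSRNP1 (−0.22), CCN2 (−0.59), SOCS3 (−0.58), ARC (−0.99) and RHOB (−0.06) lay below 0 in HCT116. The others of the 16 stayed above 0 there, ZFP36L1 by only 0.02. At least 2-fold lower were 15 of 34 genes with enough reads in SW480 (all genes 7.28%), 4 of 27 in HT29 (6.07%) and 3 of 31 in HCT116 (28.9%). In HCT116 10 of 31 were 2-fold higher, near the 28.1% of all genes, and 4 were with the GC and length trend removed, against 18.8% of all genes. EGR1, the zinc finger factor most often induced with FOS, was lower throughout, with 30.2% of control in HT29 (22.6 to 39.9%), 19.6% in SW480 (15.3 to 24.8%) and 19.2% in HCT116 (10.6 to 32.3%). Its log2 fold change was −2.13 ± 0.42, and the other genes of smallest p among those lower in all lines were BTG1 (−1.47 ± 0.43), PPP1R15A (−1.13 ± 0.46) and GADD45A (−0.76 ± 0.40), with limma adjusted p from 0.250 to 0.399 for the 4. Among genes with at least 50 reads in 1 library of every line, the widest ranges belonged to DUSP2, at −0.26 in HT29, −0.95 in SW480 and 2.51 in HCT116, and to ID2, at 0.78, −0.69 and −2.36. EGR2 was listed in SW480 only, with 34 reads in the control and 1 in the knockdown (2.40% of control, 0.0592 to 14.3%). EGR3 was blank in every line.

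**Figure D5:**
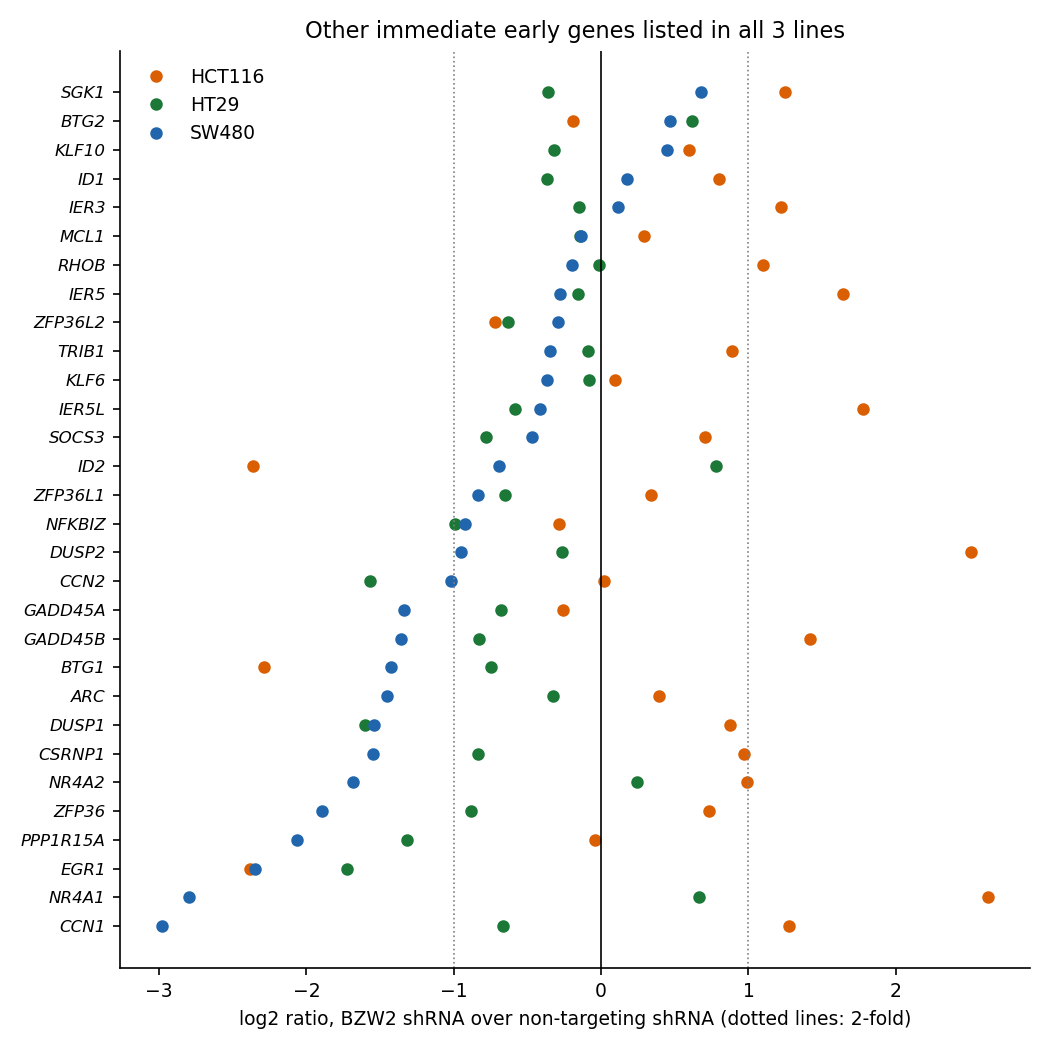
Log2 ratio of knockdown over control for the 30 other immediate early genes listed in all lines, ordered by the SW480 value, in HCT116 (orange), HT29 (green) and SW480 (blue), with dotted lines at 2-fold. EGR1 lies left of −1 in each line, and the orange points of most other genes lie to the right of the blue and green ones.

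Partners, upstream kinases and known targets of AP-1 were read from lists as well, and 0 genes of any list passed a limma adjusted p of 0.05. At an unadjusted limma p under 0.05 there were 7 lower bZIP partners, 3 lower and 3 higher upstream genes and 4 lower targets, against 7.04% lower and 6.59% higher over all genes. Over all genes 48.9% had a negative log2 fold change, 19.8% were lower in all lines and 23.7% higher, and the counts that follow are to be read against these. All use ratios as deposited, without the GC and length trend taken out. Of 20 other bZIP genes tested, 16 had a negative log2 fold change (median −0.69) and 12 were lower in all 3 lines. They included DDIT3 (CHOP), at −3.74 ± 0.46, ATF6, at −1.32 ± 0.38, CEBPG, at −1.49 ± 0.43, and ATF4, at −1.10 ± 0.40, genes known from the stress response. With the trend taken out, CREB1 (0.96) and CREM (0.78), both among those 12, turned positive in HCT116. ATF6 moved there from −1.99 to −0.70 and ATF4 from −1.79 to −2.92. At least 2-fold lower in HCT116 were 10 of 20 as deposited and 8 with the trend taken out (all genes 28.9 and 17.3%). The AP-1 repressor gene JDP2 stood at 0.02 in HT29, −1.19 in SW480 and −3.27 in HCT116. CREB5, with 0 reads in the HCT116 knockdown, lay below that median at its fitted value and at a floor of 3 reads.

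Of 27 upstream genes (MAP kinases, RAS, SRF and its ternary complex partners), 12 had a negative log2 fold change (median 0.08), 6 were lower in all lines and 7 higher, all near the shares of all genes. Among them the kinase gene RPS6KA5 (MSK1) stood at −1.83 ± 0.51 and its paralog RPS6KA4 (MSK2) at 1.55 ± 0.48. Of 23 AP-1 target genes, 17 were negative (median −0.40), 6 lower in all lines and 1, the protease gene MMP14, higher (0.88 ± 0.49), so the count lower in all lines was near that of all genes. The lower ones included the fibronectin gene FN1 (−1.87 ± 0.49) and the EGF receptor ligand gene AREG (−1.64 ± 0.43). Target gene CXCL8 stood at 0.71 in HT29, −0.83 in SW480 and −2.83 in HCT116.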

How the data were processed

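RNA sequencing libraries of 6 samples (3 lines, 1 control and 1 knockdown each) were read from 1 deposited matrix of 266314 rows, in which 19 repeated identifiers were left out of 13040. Per the submitters' processing notes, bcl2fastq 2.17, STAR 2.5.2b, DESeq and the GRCh38 build were used; the gene counter, annotation and strandedness were not given in the sources used here. The deposited values are a signal, gene reads divided by a size factor. That factor appears to have been set per line, so values were compared within a line. No label states this. It was inferred because the values of 1 read (the step) in a line's control and knockdown columns multiplied to 1. Division by a column's step gave back whole reads (tolerance 0.1 read) for 100% of values, with the smallest value of the SW480 control standing for 2 reads. Blank cells mark genes not listed for a line.

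Members and lists were chosen with earlier results of these data known. The main test was limma 3.58.1 (R 4.3.3) on log2(value + 1), two-sided, cell line and treatment as terms, intensity trend, Benjamini-Hochberg over 10875 genes; the scale understates folds of low genes. A value of 1 in 3 libraries was required. The cell line pairs the libraries: after removal of group means, the pairs of HCT116, HT29 and SW480 correlated at 0.28, 0.75 and 0.45. The HCT116 knockdown correlated nearly as well with the SW480 control (0.23), and the SW480 knockdown with the HCT116 control (0.38). Pairing was thus clear in HT29 only. The fit has 2 residual and 7.26 prior degrees of freedom, so p-values and ± values (moderated SE) lean on spread pooled over genes. They concern spread among lines, not cultures. Ratios within a line have exact Clopper-Pearson 95% intervals that cover counting error only. Counts needed 5 CPM in the higher library. Positions, lengths, GC content and exons came from GENCODE 29 and promoters from RefSeq. A mgcv 1.9.3 smooth gave the GC and length trend. The fit was tested on simulated data. Alternatives were TMM and library size scaling, other pseudocounts, filters and folds, no block, each line left out, edgeR 4.0.16 and DESeq2 1.42.0. The count of members lower in all lines without the trend, the subtraction of genes of like GC content and the split by exon number were added after seeing the data. All members are named. From each other list the named genes are the 4 of smallest p lower in all lines, the 4 higher, and the 2 of widest range, of which examples are given; EGR2, EGR3 and CREB5 were picked after their values were seen.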

Additional observations from a re-analysis of the deposited data

Results flagged for a closer look

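In 10 comparisons between lines, a member was higher in the HCT116 knockdown and lower in that of another line, with counting intervals on either side of no change. With 1 pair of libraries a line, the difference itself was not tested. FOSL1 differed most, by 3.998 on the log2 scale between HCT116 and HT29. JUN differed by 1.17 between HCT116 and HT29 and by 2.71 between HCT116 and SW480, JUNB by 2.19 and 2.26, FOSL2 by 1.35 and 1.94, and JUND by 0.63 and 1.11. IER2 differed by 1.65 between HCT116 and SW480. These differences are of deposited ratios. The GC and length trend in HCT116 at each of these genes lay between 0.45 (FOSL2) and 1.47 (JUND). With it taken out, JUN (−0.44), JUNB (−0.54), JUND (−1.17) and IER2 (−0.27) lay below 0 in HCT116, so their directions were no longer opposite. FOSL1 (2.02) and FOSL2 (0.30) stayed above 0 there.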

How the results depend on the processing

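Of 126 member fold changes under alternatives, 113 kept their direction and their side of the threshold, 7 passed it and 6 turned. IER2 turned with library size scaling (−0.020), without HCT116 (−0.37) and with the replicate block plus GC and length correction (−0.37), FOSL1 without HCT116 (−0.30), and FOSL2 (0.072) and JUN (0.0079) without SW480. With a line left out, FOSL1 ranged from −0.30 to 1.67, FOSL2 from −0.89 to 0.072, JUN from −1.34 to 0.0079, IER2 from −0.37 to 0.45, FOS from −1.92 to −0.58, JUNB from −1.34 to −0.21 and JUND from −0.57 to −0.013. In HCT116 the log2 ratios of JUN (−0.44), JUNB (−0.54), JUND (−1.17) and IER2 (−0.27) turned with the GC and length trend removed, and that of JUND with library size scaling (−0.064). The count of members lower past adjusted p 0.05 was 0 to 5 with a line left out and 2 by DESeq2, and that of higher members 0 throughout. Over all genes the lower count was 27 to 151 with a line left out and 134 by DESeq2. The higher count was 30 to 187 and 110. BZW2 ranged from −3.16 to −2.64 with a line left out, passing without HCT116 (limma adjusted p = 3.09e-04) or SW480 (0.00477), and by DESeq2 (−2.99, adjusted p = 9.42e-08).

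Members at least 2-fold lower in HCT116, 1 in the report, were 2 with library size scaling, 2 at 1.5-fold, 0 at 3-fold, 3 with the trend removed and 2 with genes of like GC subtracted. Those 2-fold higher, 2 in the report, were 1, 5, 1, 1 and 1. In the same order without the last, 4188, 4295, 2085 and 1981 of all genes were lower, against 3298 of 11421 in the report. Higher were 2308, 4235, 1826 and 2142, against 3212. All genes were not counted for the subtraction of like GC. In HT29, 2 members were 3-fold lower, where 197 of 10104 genes were. Members lower in all lines were 3 to 8 with a line left out and 7 with the trend removed, and those higher 0 to 1 (FOSL1 without HT29). Of all 10875 genes, 3000 to 3403 were lower and 3314 to 3734 higher with a line left out. With the trend removed 1953 were lower and 2919 higher. The cause of these shifts was not tested. Without the replicate block, that is without pairing libraries by line, fold changes were the same (ATF3 −1.90). Then 0 members passed, as did 0 of all genes, and every member tested had a limma adjusted p of 0.9997. Depth limits FOSB, and FOS and FOSL1 in HCT116, where 30 to 175 reads stood behind a value. Reads were also few for ATF3 (45) and KLF4 (46) in the HCT116 knockdown. The same holds for FOSL1 in the HT29 knockdown (38) and FOS in the SW480 knockdown (42).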
